A study of Mus musculus with 6 samples.

Results

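The genes described here encode the digestive enzymes of the lysosome, the proteins of its membrane and Tfeb, a transcription factor of lysosomal genes. They are 44 mouse genes chosen by gene symbol from a list of lysosomal functions. The list was drawn up with the Cre+ and Cre- intensities of these same arrays known, so the Cre+ against Cre- values of the members are a description and support nothing by themselves. Of the 44, 41 had a row of their own in the deposited expression table, which names 20805 genes on rows with a single gene. Ctsb and Sgsh lay on rows shared with a neighbouring gene, and Tfeb had no row.

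Mammary cells were taken from mice homozygous for a floxed insulin receptor gene (IRfl/fl). The 3 Cre- mice (numbered 1, 2 and 4 in the labels) lack the recombinase, and the 3 Cre+ mice (5, 6 and 7) express Cre from the BLG promoter, which belongs to the milk protein beta-lactoglobulin. All 6 had been mated with CD1 males and were killed on day 13.5 of pregnancy, and their mammary cells were freed with collagenase. The comparison asks what loss of the insulin receptor in secretory cells does to their expression in pregnancy. Each mouse gave 1 Affymetrix MoGene 1.0 ST array. The BLG promoter works in secretory epithelium, so cells of other types in a digest are not its targets, and the labels give no group that carries Cre without the floxed gene. The labels give neither litters nor the age of the mice.

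On each array the unit is the deposited intensity, a linear brightness after robust multi-array averaging (RMA), a method that puts arrays on a common scale. Array medians lay between 28.4 and 29.3, and the lowest intensity of the table was 18.7. Differences are log2 changes, the Cre+ mean less the Cre- mean, and their standard errors (SE) come from a limma fit over 16921 probe sets, and a gene was called when its Benjamini-Hochberg adjusted p in that fit was under 0.05. Levels of different genes are not compared, because each probe set has its own brightness. Insr, the targeted gene, read 106, 104 and 122 on the Cre- arrays and 55.2, 47.7 and 71.2 on the Cre+ arrays at its brighter probe set. It fell by 0.95 on the log2 scale (SE 0.15, n = 3 and 3, limma adjusted p = 0.0231), and by 0.52 at its other probe set (SE 0.09, limma adjusted p = 0.0285).

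The labelled cell type is mammary alveolar cell. Of 12 luminal alveolar markers, 9 fell in Cre+ and none rose, and their mean log2 level was 9.76 to 9.91 on the Cre- arrays and 8.67 to 8.85 on the Cre+ arrays. Of 10 basal myoepithelial markers, 4 rose, and the summed intensity of that list was 2730 to 4067 in Cre- and 4995 to 5291 in Cre+. The digest also held other cells, since the 19 macrophage and dendritic cell markers summed to between 1428 and 3137. None of the markers of luminal structure, T and B cells, endothelium or adipocytes was called. Their mean log2 levels still differed (Cre+ less Cre-), by -0.30, -0.30, 0.31 and 0.33 in that order. A change above 0 was seen in 1 of 8 luminal structure and 2 of 12 T and B cell markers. It was seen in 7 of 7 endothelial and 6 of 7 adipocyte markers. Of 12 measured fibroblast markers, 2 were called higher and all 12 had a change above 0, with a mean log2 difference of 0.62. The part of these cell types in the lysosomal values was not tested, and in such a bulk sample fewer cells of a type and less RNA per cell cannot be told apart.

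Lysosomes are acidic organelles that break down proteins, glycans and lipids delivered by endocytosis and autophagy. Their soluble enzymes are tagged with mannose 6-phosphate in the Golgi and carried by receptors, while membrane proteins travel by signals in their tails. Many of their genes are switched on by Tfeb and its relatives, which bind an E-box, CACGTG, within a longer element. When nutrients and insulin signalling keep the kinase complex mTORC1 active, Tfeb is phosphorylated and held in the cytoplasm. In the mammary gland lysosomal proteases, cathepsins B and L among them, are known for their part in cell death after weaning, where Stat3 raises their expression.

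The promoter windows of the members, taken from RefSeq (GRCm38.p6) as 250 bases before to 50 after each annotated start, show how often that E-box occurs. Windows were found for 40 of the 44 genes and not for Asah1, Ctsb, Ctsh and Npc1. The hexamer CACGTG, which reads the same on both strands, was in the windows of 13 of the 40 members (32.5%), and in 8.09% of the 27025 genes with a window. The longer TCACGTGA, which contains the hexamer, was in 4 members, Ctsa, Ctsd, Gla and Mcoln1 (10%), against 1.12% of all genes. Of 20 hexamer copies in the members, 14 lay within 100 bases before the start, and 4 copies, in Ctsa, Lgmn and Ctsl, lay inside the annotated gene. Stretches upstream of the start of 5 members are printed with the hexamer in capitals. They show it in a protease and a glycosidase that were lower in Cre+ (Ctsd and Glb1), in the pair of membrane proteins that hold several copies (Lamp1 and Mcoln1), and in Naglu, a glycosidase that was not called.
Ctsd, chr7:142387906-142387939, minus strand: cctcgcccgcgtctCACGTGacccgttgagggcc
Glb1, chr9:114401016-114401049, plus strand: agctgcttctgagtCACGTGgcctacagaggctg
Lamp1, chr8:13159086-13159160, plus strand: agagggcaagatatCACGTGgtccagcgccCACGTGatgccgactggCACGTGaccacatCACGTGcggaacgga
Mcoln1, chr8:3500434-3500493, plus strand: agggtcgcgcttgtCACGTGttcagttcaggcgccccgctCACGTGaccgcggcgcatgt
Naglu, chr11:101070007-101070040, plus strand: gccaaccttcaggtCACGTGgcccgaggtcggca
Ctsd holds a further copy upstream of its stretch. Lamp1 carries 4 copies in the 75 bases before its start, the most of any member. The hexamer was in 5 of 11 proteases, 4 of 13 glycosidases, 2 of 4 sulfatases, 2 of 5 membrane proteins and 0 of 5 lipid enzymes and carriers with a window. A match is a run of letters and does not show that a factor binds there.

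**Figure D1:**
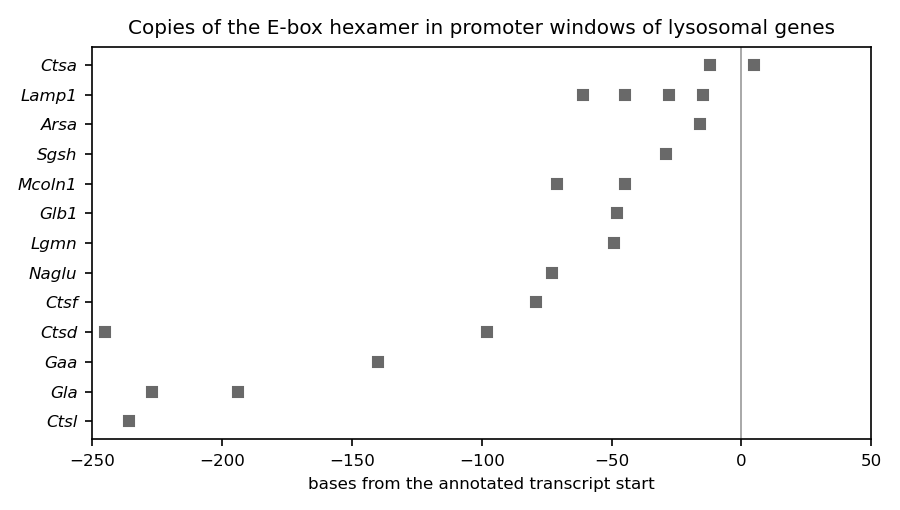
Positions of the E-box hexamer in the promoter windows of the 13 lysosomal genes that hold it, in bases from the annotated transcript start (x axis, negative before the start, linear), with 1 square per copy. Of the 20 squares, 14 lie within 100 bases before the start, and Lamp1 has 4.

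Of the 41 lysosomal genes with a row of their own, all passed the filter on dim probe sets. In Cre+ cells 8 fell, which were the proteases Ctsl, Ctsh and Ctsd, the growth factor precursor gene Grn, the glycosidases Fuca1, Fuca2 and Glb1, and the lipase gene Lipa. Over all tested probe sets 2.14% were called lower and 2.03% called higher, while 0 of the 41 members were called higher. The members' median log2 change was -0.23, beside 0.00 over all tested probe sets, and 30 of the 41 had a change below 0. All 3 Cre+ arrays lay below all 3 Cre- arrays for 21 members and above them for 3 (Ctsk, Arsb and Ids), where 12.7% and 12.9% of all tested probe sets did so. Because the list was chosen with this contrast known, these shares are given side by side and no more is read from them. The count of 8 became 1 on leaving out Cre- 2, Cre+ 5 or Cre+ 6 and 3 on leaving out Cre- 4, while the count over all tested probe sets went from 706 to 118, 46, 52 and 265 in those fits. The sizes moved less than the calls, with Ctsh between -0.61 and -0.52, Grn between -0.49 and -0.43, Fuca2 between -0.62 and -0.54 and Ctsd between -0.41 and -0.34 over the fits that left out 1 array. Ctsl was called whichever array was left out.

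**Figure D2:**
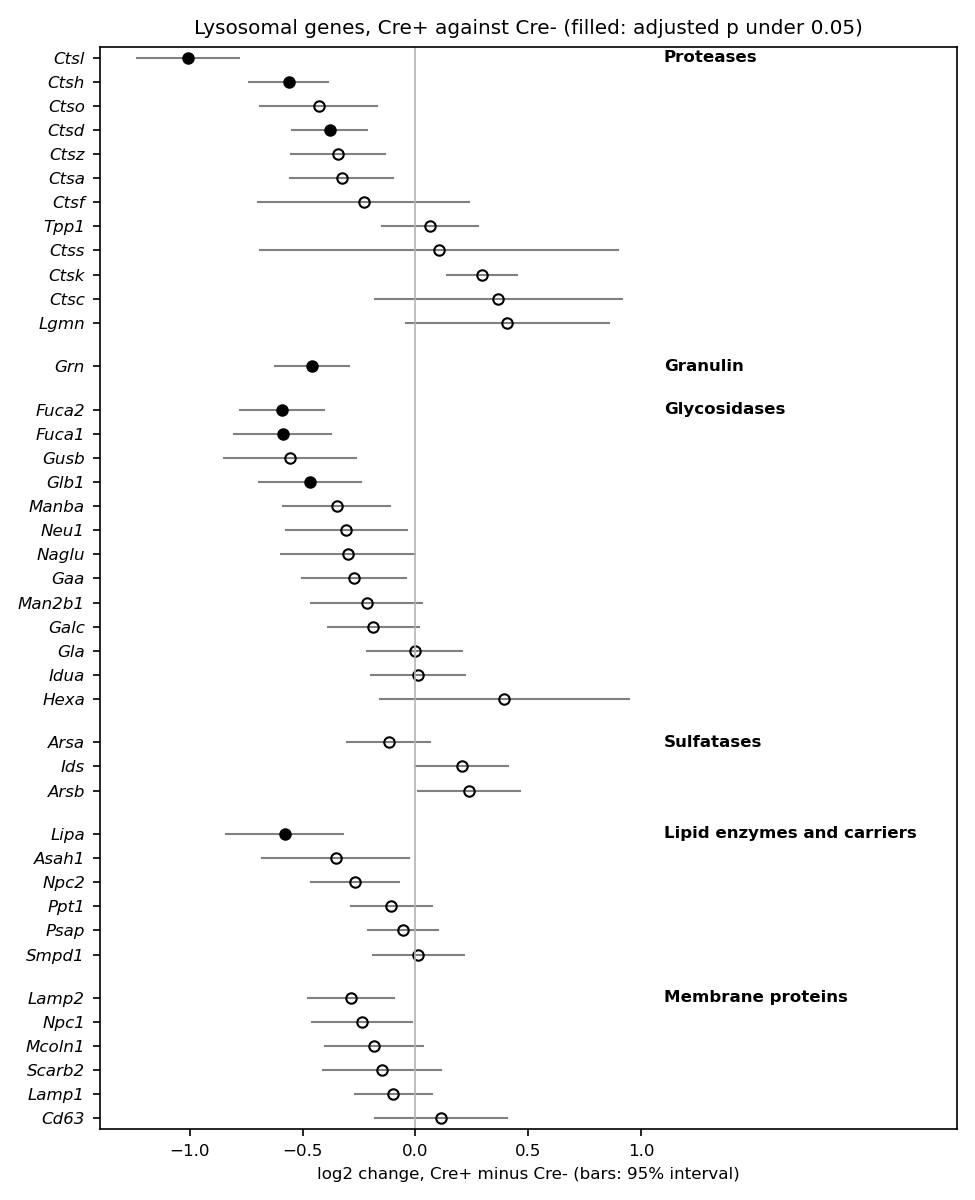
Log2 change (x axis, Cre+ minus Cre-, linear) of the 41 lysosomal genes, grouped by role and sorted within each group. Circles are the estimates from 3 against 3 arrays, bars their 95% intervals from the limma fit, and filled circles the 8 genes past adjusted p under 0.05, all to the left of 0.

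Among the proteases, Ctsl, a cysteine endopeptidase, differed most. Its intensities were 358, 289.9 and 314 on the Cre- arrays and 162, 149 and 166 on the Cre+ arrays. The groups were far apart, and the lowest Cre- array stood well above the highest Cre+ array. Ctsl fell by 1.01 (SE 0.10, n = 3 and 3), 2.01-fold, and the value ran from -1.08 to -0.93 when each array was left out in turn.

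Ctsh, an aminopeptidase of the same family, read 384, 415 and 434 in Cre- and 282, 283 and 269 in Cre+. The 3 Cre+ arrays were close together and all below the Cre- arrays. Ctsh fell by 0.56 (SE 0.07), 1.48-fold, a call that ended on leaving out Cre- 2, Cre+ 5 or Cre+ 6. Ctsd, an aspartic protease, read 1033, 943 and 942 in Cre- and 773, 749 and 718 in Cre+. Ctsd fell by 0.38 (SE 0.07), 1.30-fold, with no overlap between the groups, but its call was lost when any array was left out, also with Cre- 1 and Cre+ 7 left out together.

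The other proteases went in both directions and none was called. Below 0 with no overlap between the groups were Ctso, a cysteine protease (-0.43, SE 0.11), Ctsz, a carboxypeptidase (-0.34, SE 0.09), and Ctsa, a serine carboxypeptidase that also stabilises Glb1 and Neu1 (-0.33, SE 0.10). Ctso and Ctsz were called lower with array weights, and Ctso also without Cre- 1 and Cre+ 7. Ctsf, a cysteine protease, changed by -0.23 (SE 0.20) and Tpp1, which trims peptides from their amino end, by 0.06 (SE 0.09), both with overlapping groups. Ctsk, the collagen-degrading cathepsin of osteoclasts and fibroblasts, was dim, at 28.0, 25.8 and 24.5 in Cre- and 29.8, 32.6 and 33.6 in Cre+. All Cre+ values of Ctsk were above all Cre- values, with a change of 0.29 (SE 0.07). Ctsk was called higher with robust variances, array weights, median centring or a second quantile normalization. It was also called higher without Cre- 1, and with Cre- 1 and Cre+ 7 left out together. On the same arrays the 12 measured fibroblast markers summed to 1399, 858 and 624 in Cre- and to 1265, 1678 and 1668 in Cre+, 2 of them called higher and 0 lower, and their part in the Ctsk value was not tested.

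The values of Ctss, Ctsc and Lgmn varied widely within each genotype, and they are given by array because that spread was seen in the data. Ctss, the cathepsin that processes antigens in antigen-presenting cells, read 498, 267 and 196 in Cre- and 289, 252 and 444 in Cre+. It was highest on Cre- 1 and Cre+ 7, the groups overlapped over most of their range, and the change was 0.10 (SE 0.34). Ctsc, which activates the serine proteases of immune cell granules, read 333, 220.4 and 177 in Cre- and 299, 251 and 373 in Cre+ (0.37, SE 0.24). Lgmn, an asparaginyl endopeptidase that matures cathepsins, read 234, 156 and 149 in Cre- and 246, 192 and 268 in Cre+ (0.41, SE 0.19).

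The macrophage and dendritic cell markers, like some other lists, had the same highest arrays as these proteases. Their summed intensity was 3089, 2070 and 1428 on Cre- 1, 2 and 4 and 2431, 2454 and 3137 on Cre+ 5, 6 and 7, so that Cre- 1 and Cre+ 7 were highest in their groups here too. T and B cell markers summed to 2124, 580 and 500 in Cre- and 383, 602 and 1340 in Cre+. Endothelial markers summed to 692, 437 and 376 in Cre- and 508, 566 and 742 in Cre+. Sums of adipocyte and luminal alveolar markers also peaked on Cre- 1 and Cre+ 7. Those of fibroblast, luminal structure and basal myoepithelial markers did not. This split depended on the measure, since sums are led by bright genes. By mean log2 level, fibroblast markers did peak on Cre- 1 (6.35) and Cre+ 7 (6.62, against 6.59 on Cre+ 6). By that measure luminal alveolar markers were highest in Cre- on Cre- 4 (9.91), and adipocyte markers were highest in Cre+ on Cre+ 6 (5.72). Of the 19 macrophage and dendritic cell markers, C1qb and C1qc were called higher in Cre+, Cd14 was called lower, and 17 had a change above 0. Of the defining markers, Csf1r read 123, 92.1 and 56.2 in Cre- and 108, 98.7 and 109 in Cre+, Cd68 read 84.9, 62.2 and 43.4 in Cre- and 83.7, 74.7 and 95.7 in Cre+, and Adgre1 (Emr1 on the array) was dim, between 31.4 and 46.3. Cre- 1 and Cre+ 7 were the highest arrays of their groups for 13 of the 41 lysosomal genes and 7 of the 12 proteases, against 14.3% of all tested probe sets. With Cre- 1 and Cre+ 7 left out together, 8 members were called lower and 2 higher (Ctsk and Hexa). Of the 8 lower in all arrays, 7 were still called, all but Ctsd. In that fit 2.95% of all tested probe sets were called lower and 2.68% higher.

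**Figure D3:**
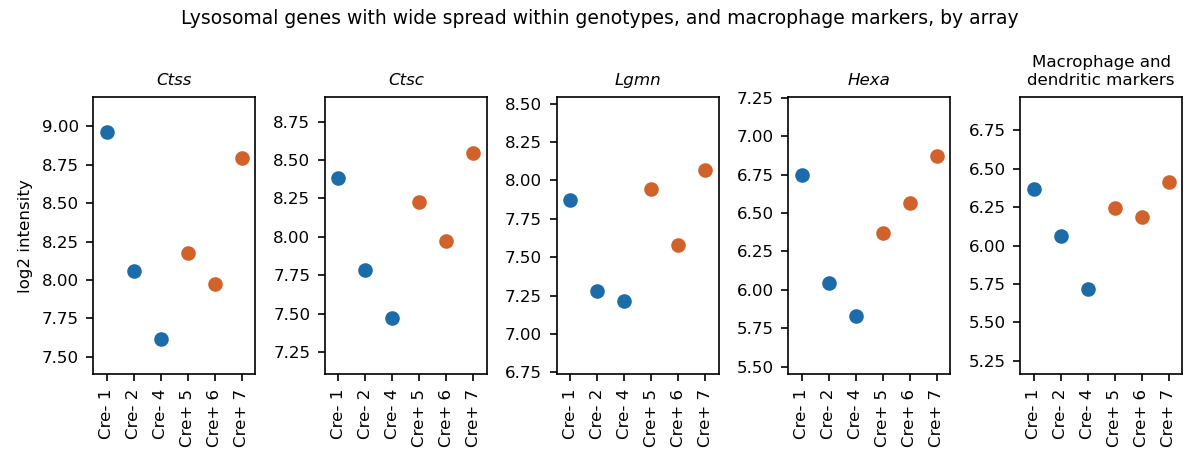
Log2 intensity (y axis, each panel spanning the same range of log2 units) of Ctss, Ctsc, Lgmn and Hexa on each of the 6 arrays (x axis; blue Cre-, orange Cre+), beside the mean log2 level of the 19 macrophage and dendritic cell markers. In every panel Cre- 1 and Cre+ 7 are the highest arrays of their groups and Cre- 4 is the lowest array of all 6.

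Grn, which encodes progranulin, a secreted protein that is cut into granulins in the lysosome, read 492, 451 and 476 in Cre- and 356, 335 and 342 in Cre+. The groups were well separated and each was tight. Grn fell by 0.46 (SE 0.07), 1.37-fold, a call that ended on leaving out any 1 of 4 arrays (Cre- 2, Cre- 4, Cre+ 5, Cre+ 6).

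Of 13 glycosidases, which remove sugars from glycoproteins, glycolipids and glycosaminoglycans, 3 fell and none rose, and 11 had a change below 0. Their median log2 change was -0.30. Fuca2, a secreted alpha-fucosidase, read 126, 128 and 131 in Cre- and 79.6, 86.9 and 89.0 in Cre+. It fell by 0.59 (SE 0.08), 1.51-fold. Both groups were narrow, with a wide gap between them, and the call ended on leaving out Cre- 2, Cre+ 5 or Cre+ 6.

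Fuca1, the tissue alpha-fucosidase that removes fucose from glycoproteins in the lysosome, read 91.6, 77.4 and 81.0 in Cre- and 55.1, 53.8 and 57.0 in Cre+, and also fell by 0.59 (SE 0.09), a call that ended on leaving out any 1 of 4 arrays (Cre- 2, Cre- 4, Cre+ 5, Cre+ 6). Glb1, the beta-galactosidase of the lysosome, read 116, 117 and 125 in Cre- and 91.4, 76.6 and 91.3 in Cre+ and fell by 0.47 (SE 0.10), 1.38-fold. The Glb1 call was lost when any array was left out and when dim probe sets were not filtered, with a change between -0.51 and -0.38 over the fits that left out 1 array.

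Gusb, the beta-glucuronidase, had a change nearly as large as the fucosidases (-0.56, SE 0.13) and was not called, with 171, 128 and 148 in Cre- and 92.1, 113 and 98.7 in Cre+. It was called lower with the stricter filter on dim probe sets, robust variances, median centring or array weights. Man2b1, an alpha-mannosidase, read 203, 178 and 161 in Cre- and 152, 146 and 168 in Cre+, with overlap (-0.22, SE 0.11). Groups did not overlap, with lower Cre+ values but no call, for Manba, the beta-mannosidase (-0.35, SE 0.10), Neu1, a sialidase (-0.31, SE 0.12), Naglu, which acts on heparan sulfate (-0.30, SE 0.13), Gaa, the glycogen-degrading acid alpha-glucosidase (-0.27, SE 0.10), and Galc, which cleaves galactosylceramide (-0.19, SE 0.09).

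Not all glycosidases were lower. Gla, the alpha-galactosidase, changed by 0.00 (SE 0.09, 95% interval -0.21 to 0.21) and Idua, which acts on heparan and dermatan sulfate, by 0.01 (SE 0.09, interval -0.20 to 0.22). Hexa, the alpha subunit of beta-hexosaminidase, went the other way, at 108, 66.0 and 57.0 in Cre- and 82.6, 94.7 and 117 in Cre+ (0.39, SE 0.24). Hexa followed the pattern of Ctss, Ctsc and Lgmn, with Cre- 1 and Cre+ 7 highest, and was called higher, by 0.53, when those arrays were both left out.

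**Figure D4:**
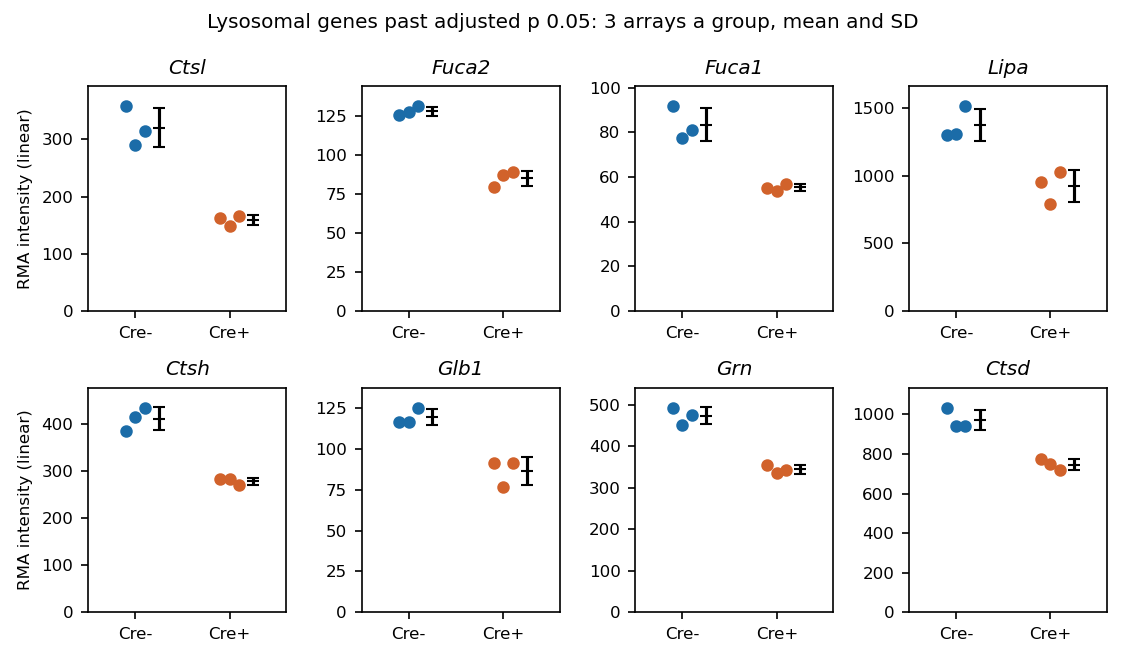
Linear RMA intensity (y axis, starting at 0) of the 8 lysosomal genes past adjusted p under 0.05, with 1 point per array (blue Cre-, orange Cre+) and the mean with its SD beside each group (n = 3 and 3). In each panel all 3 Cre+ points lie below all 3 Cre- points, by the widest margin for Ctsl.

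Of the 3 sulfatases with their own rows, which remove sulfate from glycosaminoglycans and sulfolipids, none was called and the direction was mixed. Arsb, which acts on dermatan sulfate, read 72.4, 67.3 and 82.7 in Cre- and 84.9, 88.0 and 88.5 in Cre+ (0.24, SE 0.10). Its second probe set gave 40.6, 34.3 and 44.1 in Cre- and 48.7, 49.4 and 46.8 in Cre+ (0.29, SE 0.10), so both probe sets of the gene were higher in Cre+ without overlap. Ids, which acts on heparan and dermatan sulfate, read 77.1, 80.7 and 86.1 in Cre- and 90.3, 101 and 90.1 in Cre+ (0.20, SE 0.09). Arsa, the sulfatase of myelin sulfatide, changed by -0.12 (SE 0.08) with overlapping groups.

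Among the 6 lipid enzymes and carriers, Lipa, which hydrolyses the cholesteryl esters and triglycerides that reach the lysosome, fell. It read 1303, 1307 and 1511 in Cre- and 952, 791 and 1024 in Cre+. No Cre+ array reached the lowest Cre- array, and the fall was 0.58 (SE 0.11), 1.49-fold, a call that ended on leaving out any 1 of 4 arrays (Cre- 2, Cre- 4, Cre+ 5, Cre+ 6). Psap, the precursor of the saposins that present lipids to their hydrolases, read 2299, 2421 and 2396 in Cre- and 2392, 2177 and 2284 in Cre+. Psap overlapped between the groups and changed by -0.06 (SE 0.07), with a 95% interval of -0.21 to 0.10, which leaves out changes of the size of Lipa.

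The 4 remaining members of that role were not called. Asah1, the acid ceramidase (-0.35, SE 0.14), Npc2, the soluble cholesterol carrier (-0.27, SE 0.08), and Ppt1, which removes palmitate from proteins (-0.11, SE 0.08), had lower Cre+ values without overlap. Smpd1, the acid sphingomyelinase, changed by 0.01 (SE 0.09) with overlap.

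No membrane protein of the lysosome was called among 6. Lamp1 and Lamp2, the abundant glycoproteins that line the membrane, were measured with little spread in Cre- cells. Lamp1, with its 4 E-boxes, read 512, 539 and 507 in Cre- and 514, 487 and 456 in Cre+, with overlap (-0.10, SE 0.07, 95% interval -0.27 to 0.07). Lamp2 read 285, 299 and 299 in Cre- and 239, 224 and 262 in Cre+, without overlap (-0.29, SE 0.08), and was called lower with array weights. Npc1, which exports cholesterol together with Npc2, changed by -0.24 (SE 0.10), Mcoln1, a calcium channel, by -0.18 (SE 0.09), Scarb2, the carrier of beta-glucocerebrosidase, by -0.15 (SE 0.11), and the tetraspanin Cd63 by 0.11 (SE 0.13), all 4 with overlapping groups.

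The genes without a row of their own are given from rows that name 2 genes, which limits what the values mean. The row naming Ctsb first and Fdft1 second, the latter a gene of sterol synthesis, read 592, 504 and 517 in Cre- and 390.3, 390.0 and 424 in Cre+, a log2 difference of -0.42 without overlap. The row naming the same genes in the opposite order read 41.6, 51.0 and 58.0 in Cre- and 63.7, 60.8 and 46.6 in Cre+ (0.18), with overlap. The 2 rows that name Sgsh, a heparan sulfatase, beside Card14 had log2 differences of -0.08 and -0.40, with overlapping groups at both. None of these rows was tested.

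Set beside the promoter windows, the hexamer occurred both in genes that fell and in genes that were not called. It was in 3 of 7 called members with a window (Ctsd, Ctsl and Glb1) and in 9 of 31 members that were not called. The median log2 change was -0.25 over 12 measured members with the hexamer and -0.17 over 26 without it. Lgmn, with the highest change of all 41 members, holds the hexamer, and so does Ctsl, with the lowest. In both genes the copy lies inside the annotated gene.

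Other lysosomal genes, from a list of 104 names in 5 classes, give the surroundings of these members. Over all tested probe sets 2.14% were called lower and 2.03% higher, and the median log2 change was 0.00. Of 95 listed genes found on the array and 88 tested, 7 fell and none rose, and the median log2 change was -0.12. Of the 7, the largest fall was that of Slc17a5, the exporter of sialic acid, which read 128, 130.4 and 177 in Cre- and 63.2, 61.2 and 66.9 in Cre+. It fell by 1.17 (SE 0.13, limma adjusted p = 0.0108), 2.25-fold, more than any of the 41 members. Ctns, the cystine exporter, fell by 0.66 (SE 0.10, limma adjusted p = 0.0190), from 98.5, 105 and 121 to 69.1, 67.4 and 67.2. Sidt2, a nucleic acid transporter of the lysosomal membrane, fell by 0.39 (SE 0.07, limma adjusted p = 0.0275). So of 25 tested further membrane proteins 3 fell, although 0 of the 6 listed above were called, a difference that was not tested.

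Among 25 further enzymes 2 fell, among them Pla2g15, the lysosomal phospholipase A2, by 0.61 (SE 0.08, limma adjusted p = 0.0148). Of 19 tested genes of sorting and delivery, 2 fell. Igf2r, the large receptor that carries mannose 6-phosphate tagged enzymes and also clears IGF2, read 178, 165 and 190.2 in Cre- and 115, 109 and 125 in Cre+ and fell by 0.61 (SE 0.09, limma adjusted p = 0.0190). Gga2, an adaptor that loads such receptors into vesicles at the Golgi, fell by 0.43 (SE 0.08, limma adjusted p = 0.0369). Gnptab and Gnptg, subunits of the enzyme that starts the tag, changed by -0.18 (SE 0.09) and -0.23 (SE 0.10) and were not called. Of the 88 genes, 1 was called when Cre- 2 was left out, 3 when Cre- 4 was, and 4 when Cre+ 7 was. When Cre+ 5 or Cre+ 6 was left out 0 were called by limma, and 20 had an unadjusted p under 0.05 in each case. The share of all tested probe sets under that cut is not given, so nothing is read from the 20. Calls over all tested probe sets also dropped without Cre- 2, Cre- 4, Cre+ 5 or Cre+ 6, as given above.

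**Figure D5:**
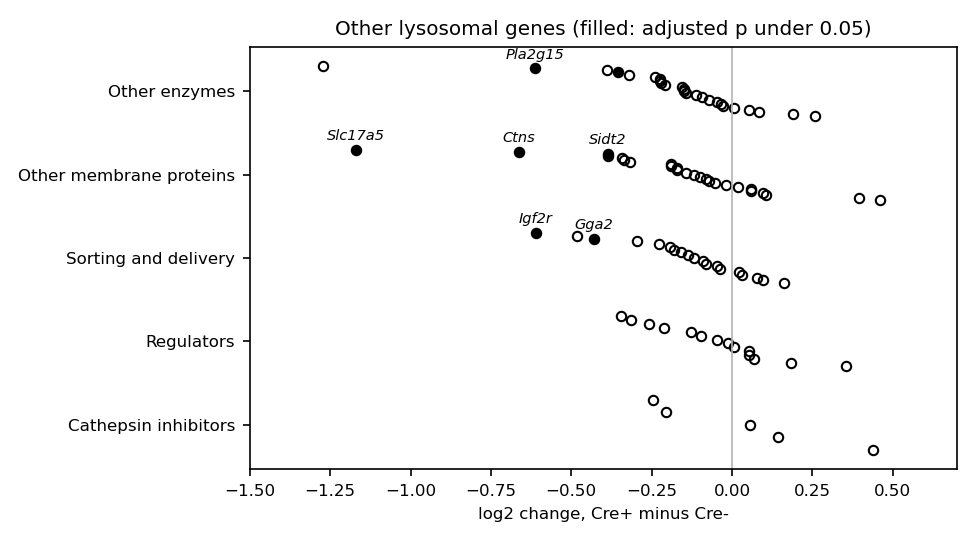
Log2 change (x axis, Cre+ minus Cre-, linear) of the 88 tested lysosomal genes outside the members, 1 circle per gene, by class; the vertical position within a class only spreads the points. Filled circles are the 7 genes past adjusted p under 0.05, all to the left of 0 and 6 of them named, with Slc17a5 at -1.17.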

How the data were processed

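The 6 arrays, 3 per genotype, were compared. The intensity of each probe set was, per the labels, made by the authors with RMA and core-exon analysis in Expression Console; not given in the sources used here were the program's version and the build. Deposited intensities were linear, so log2 was taken first. The deposited p-value and the deposited ratio (fold) of the authors' table matched an equal-variance test and a ratio of means recomputed here (100% of rows, within 2e-04 and 0.01), and that p-value served as an alternative. Of 28853 probe sets, 22984 named 1 gene, and 16921 with a mean at or above the 30th percentile (linear 22.4) were tested two-sided with limma 3.58.1 (R 4.3.3; linear model and empirical Bayes variances that follow the mean level), Benjamini-Hochberg adjusted over all tested probe sets. The probe set with the highest mean stood for a gene. A trial of the fit on simulated data used independent noise per probe set, so it does not cover effects shared across an array. The number of arrays limits the precision. No label says how the mice relate, so p-values measure only the spread between these samples.

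The members and lists were chosen with earlier results of these data known. Every member is named. Values per array are given for members called and, in each role, for the member with the largest change and the one with the highest mean. Of the other lysosomal genes, Slc17a5, Ctns and Igf2r have values per array. Other called genes and those of smallest p, where named, have the change and its SE only. Values outside these were chosen after being seen, and some genes are not reported here. Gene names are those of the array, updated through RefSeq synonyms for lists. The authors' columns of group means and errors were not used. Alternatives changed the filter, an offset, the variance model, the normalization, array weights, the arrays included and the test.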

Additional observations from a re-analysis of the deposited data

How the results depend on the processing

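The number of members called in the limma fit was 13 with array weights and 1 to 7 with single arrays left out, and 0 with the authors' deposited p-value after Benjamini-Hochberg adjustment, where 19 members had p under 0.05 before it. Other lysosomal genes called numbered 11 without an intensity trend, 12 with array weights, 0 to 6 with single arrays left out and 0 with the authors' p-value (16 before adjustment). Counts before adjustment, here and elsewhere, have no share of all tested probe sets beside them, so nothing is read from them. Over all tested probe sets, 706 were called, 1437 with array weights, 34 with the authors' p-value and 46 to 781 with single arrays left out. Insr changed by -1.11 to -0.82 with single arrays left out and lost its call on leaving out any 1 of 4 arrays (Cre- 2, Cre- 4, Cre+ 5, Cre+ 6), and its change of -0.95 had adjusted p = 0.138 from the authors' p-value. The causes were not tested. Of 120 values of the 8 called members under alternatives, 0 changed sign and 3 moved by more than 1 SD between replicates. Alternatives that changed only the filter or the variance model leave a log2 change as it is, so part of the 120 could not move. With 16 subtracted from every intensity, in case a constant had been added before deposit, dim members moved most, Ctsk to 0.67 and Ctso to -0.67, and Ctsl moved to -1.09. No paired analysis was possible because the labels give no litters and name no pairs of mice.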

Other observations

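Regulators of the lysosome and a class listed as inhibitors of cathepsins were on the same list of lysosomal genes. Of 14 tested regulators 0 were called in limma, where 5 had an unadjusted p under 0.05. The lowest changes were those of Zkscan3, a repressor of lysosomal and autophagy genes (-0.35, SE 0.09, limma adjusted p = 0.0742), and Lamtor2, which anchors mTORC1 signalling to the lysosome (Robld3 on the array, -0.31, SE 0.08, limma adjusted p = 0.0802). The highest was that of Rptor, a subunit of mTORC1 (0.35, SE 0.08, limma adjusted p = 0.0619). Tfe3, a relative of Tfeb (Tcfe3 on the array), changed by 0.01 (SE 0.09).

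Of 5 tested genes listed as inhibitors of cathepsins 0 were called in limma, where 2 had an unadjusted p under 0.05. Which proteases each of them inhibits was not examined. Serpinb6a changed by 0.44 (SE 0.14, limma adjusted p = 0.124) and Spink5 by -0.24 (SE 0.08, limma adjusted p = 0.150). Cst3, the secreted cystatin C, varied widely within the groups (0.14, SE 0.27), and Cstb, an inhibitor inside cells, changed by -0.20 (SE 0.12). Ctse, an aspartic protease of endosomes, had the largest change of the further enzymes at -1.27, but with an SE of 0.45 and overlapping groups it was not called (limma adjusted p = 0.163).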
